A study of Mus musculus with 2 samples.

Results

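The guanylate-binding protein (GBP) genes of the mouse were followed through the cells of tumour-draining inguinal lymph nodes. The family was taken as the 9 genes Gbp2, Gbp3, Gbp4, Gbp5, Gbp6, Gbp7, Gbp8, Gbp9 and Gbp10, selected by symbol among the 25815 genes listed over both libraries. All 9 had counts in each library. The members were chosen with results of these libraries known, so the values below describe them and no test supports them.

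GBPs are large dynamin-like GTPases whose genes are switched on by interferons. They gather on the membranes of vacuoles and of bacteria inside the cell, where they take part in breaking the pathogen's compartment open and in alerting inflammasomes. In mice, the conjugation machinery that contains ATG5 is needed for GBPs and the related immunity-related GTPases to load onto such vacuoles properly.

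Nodes of wild-type (WT) mice gave 1 library from 13 pooled nodes, and nodes of ATG5LEC-KO mice gave 1 library from 9 pooled nodes. The second name stands for a deletion of Atg5 in the lymphatic endothelium, whose cells (LECs) form the walls of lymph vessels and node sinuses, and that library is called KO-labelled here. Viable CD31+ CD45- Ter119- endothelial cells and CD45+ CD31- Ter119- immune cells were sorted and pooled, so the ratio of endothelial to immune cells carries no information. The tumour, the Cre driver, the strain, and the age of the animals are not given in the sources used here.

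Each molecule was counted once by its unique molecular identifier (UMI) near its 3' end, and levels are UMIs of a gene scaled to counts per 1e6 UMIs of a class (CPM), so they do not scale with transcript length. Brackets hold 95% intervals that cover counting error only, and there was no replicate. After filtering, 3830 WT and 4042 KO-labelled cells were classed by marker genes, and every class name means resemblance to those markers. The libraries held 23649554 and 23089918 UMIs, and their median cells held 3536 and 3387. Summed over 7 LEC markers, LECs stood at 6462 and 10352 CPM and blood endothelial cells (BECs) at 455 and 571 CPM, whereas the 8 BEC markers summed to 2315 and 2065 CPM in LECs and to 11439 and 11818 CPM in BECs. Atg5 had 40.8 CPM (35.7-46.3) in WT LECs and 44.5 CPM (34.7-56.2) in KO-labelled LECs, a ratio of 1.09 (0.822-1.43). The deleted exon is not named and counting was at the 3' end, so this value does not check the label. The libraries differed in sex, with 71.3% and 50.9% male among LECs that could be assigned, and in the median share of mitochondrial UMIs in LECs, 6.8% and 10.4%. Ratios within male and within female cells are given with the other settings, and the part of the mitochondrial share was examined only by leaving out cells above 10%.

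The 9 genes lie in 2 clusters of the GRCm38 genome. Gbp5 (chromosome 3, 142493978-142522344), Gbp7 (142530342-142550149), Gbp3 (142560026-142573209) and Gbp2 (142620602-142638008) stand on the plus strand of chromosome 3. Gbp8 (chromosome 5, 105014150-105139540), Gbp9 (105077630-105139539), Gbp4 (105115767-105139586), Gbp10 (105215699-105239533) and Gbp6 (105270702-105293698) stand on the minus strand of chromosome 5. The annotated spans of Gbp8, Gbp9 and Gbp4 overlap on the same strand, and intronic reads were not excluded, so UMIs may be split uncertainly among these 3 genes. Gbp10 and Gbp6 are near copies: 94.5% of the 50-base words in the last 500 bases of Gbp10 transcripts also occur in Gbp6 transcripts, and 39.0% the other way, so their counts are uncertain. For Gbp5 and Gbp7 no such word was shared with another family gene, and for Gbp2 and Gbp3 the shares were 3.55% and 2.74%. The relative Gbp2b had 5 and 4 UMIs in all clustered cells and was not analysed further.

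RefSeq promoter windows (GRCm38.p6) were at hand for the 4 members on chromosome 3. They are shown because interferon acts through short promoter motifs. The 4 genes were set by the windows at hand and not by their levels. The interferon-stimulated response element (ISRE), which binds the complex formed after type I interferon and also interferon regulatory factors, was searched as the letters GAAA, any 2 bases, and GAAA again. The gamma-activated site (GAS), a motif of interferon gamma targets, was searched as TTCNNNGAA. Both were searched on both strands of the 250 bases before each RefSeq start, and capitals mark the matches, none of which overlapped a match of the other motif. A stretch that runs far into a GENCODE exon was trimmed. The lines give Gbp2 (chr3:142620413-142620626), Gbp3 (chr3:142559794-142560043), Gbp5 (chr3:142496684-142496924) and Gbp7 (chr3:142530086-142530335), all on the plus strand.
Gbp2: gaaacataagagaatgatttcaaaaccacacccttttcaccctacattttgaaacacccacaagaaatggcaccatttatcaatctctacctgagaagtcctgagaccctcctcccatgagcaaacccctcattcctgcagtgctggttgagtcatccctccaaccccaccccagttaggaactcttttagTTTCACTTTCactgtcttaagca
Gbp3: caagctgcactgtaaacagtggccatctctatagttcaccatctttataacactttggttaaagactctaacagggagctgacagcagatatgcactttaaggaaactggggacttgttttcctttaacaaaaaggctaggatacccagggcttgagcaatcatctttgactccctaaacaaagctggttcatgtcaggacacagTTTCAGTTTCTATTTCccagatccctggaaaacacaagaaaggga
Gbp5: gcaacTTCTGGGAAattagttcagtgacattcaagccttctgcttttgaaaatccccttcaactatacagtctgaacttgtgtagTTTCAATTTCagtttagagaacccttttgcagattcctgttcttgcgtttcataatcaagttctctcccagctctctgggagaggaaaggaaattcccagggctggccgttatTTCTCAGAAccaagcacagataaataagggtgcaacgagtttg
Gbp7: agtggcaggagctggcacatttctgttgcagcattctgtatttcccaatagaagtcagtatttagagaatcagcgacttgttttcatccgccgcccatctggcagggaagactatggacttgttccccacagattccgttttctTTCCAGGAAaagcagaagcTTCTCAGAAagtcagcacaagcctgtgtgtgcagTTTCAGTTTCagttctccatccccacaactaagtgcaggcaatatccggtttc

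All 4 windows held an ISRE match on the minus strand. It began 59 bases before the RefSeq start in Gbp2, 165 bases before it in Gbp5 and 53 bases before it in Gbp7. Gbp3 held 2 overlapping ISRE matches, beginning 45 and 39 bases before the start, and a further Gbp3 window at an alternative start held none. GAS matches were found 2 times in Gbp5, at 245 and 52 bases, and 2 times in Gbp7, at 106 and 87 bases, and the letters of this motif were not in the windows of Gbp2 and Gbp3. Of 32851 windows of this length, 2.98% held an ISRE match and 7.02% a GAS match. A match of letters is not evidence of binding.

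Gbp7, which has been described as a link between GBPs, autophagy proteins and the phagocyte oxidase, was the member with most UMIs in endothelial cells and T cells of the WT library. It made up 32.3% of the family's UMIs in WT LECs, 28.9% in WT BECs, 29.3% in WT CD4 T cells and 26.8% in WT CD8 T cells. B cells had another order: Gbp9 held 24.8% and 24.5% of the family's UMIs in the 2 libraries and Gbp7 14.1% and 14.4%. Gbp2, a member that is anchored in membranes by a lipid and is among the best studied at the Toxoplasma vacuole, held 16.7% of the family in WT BECs and 4.22% in WT B cells. Gbp10 was the rarest, with 37 and 89 UMIs in all clustered cells against 3474 and 3597 for Gbp7.

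Among LECs, BECs, B cells and T cells, the summed family was lowest in B cells, at 332 CPM (313-352) for WT and 335 CPM (317-353) for KO-labelled cells. Barcodes with 10 to 100 UMIs, which hold free RNA and no cell, stood at 399 CPM (374-426) and 462 CPM (434-492), so the level in B cells was below that of free RNA. WT LECs reached 741 CPM (719-764), WT CD4 T cells 896 CPM (839-956), WT CD8 T cells 907 CPM (863-953), WT regulatory T cells 1045 CPM (954-1142) and WT BECs 1144 CPM (1106-1183). The neighbours CD4 and CD8 T cells did not differ beyond counting error, and the intervals of regulatory T cells and BECs overlapped. In the KO-labelled library BECs stood first at 2202 CPM (2146-2260), followed by regulatory T cells at 1133 CPM (1056-1213), LECs at 1044 CPM (994-1096), CD8 T cells at 839 CPM (806-873) and CD4 T cells at 659 CPM (624-695).

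**Figure D1:**
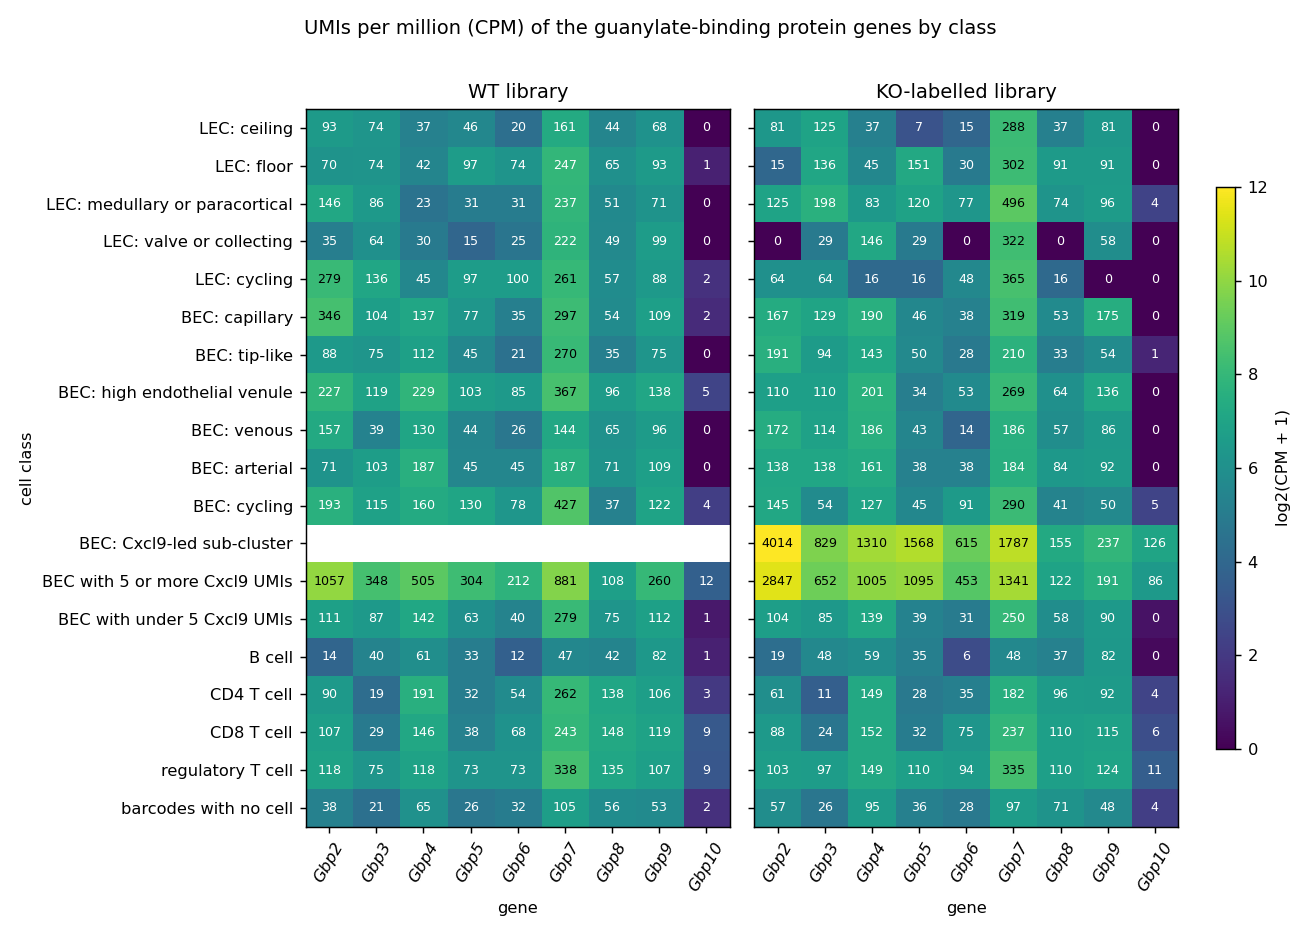
Level of each GBP gene (columns) in each cell class (rows) of both libraries, as CPM printed in the cells and coloured by log2(CPM + 1). The brightest rows are the BECs with 5 or more Cxcl9 UMIs and the Cxcl9-led sub-cluster, which had no WT cell (blank row), and Gbp2 reached 4014 CPM there.

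Within the WT lymphatic niches the family was highest in cycling LECs, at 1065 CPM (971-1166, 42 cells), followed by floor LECs of the subcapsular sinus at 764 CPM (707-823, 111 cells) and medullary or paracortical LECs at 677 CPM (594-769, 41 cells). Ceiling LECs stood at 544 CPM (507-583, 195 cells) and valve or collecting LECs at 538 CPM (442-649, 27 cells), and this pair did not differ beyond counting error, nor did floor and medullary or paracortical LECs. Gbp2 followed the order of the family in part only, with 279 CPM in cycling, 146 CPM in medullary or paracortical, 93.2 CPM in ceiling and 70.4 CPM in floor LECs. Gbp5, which promotes NLRP3 inflammasome assembly, stood at 97.3 CPM in floor LECs and 31.4 CPM in medullary or paracortical LECs.

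Among WT BEC subtypes, high endothelial venules, where lymphocytes enter the node, had 1369 CPM (1261-1483, 80 cells) and cycling BECs 1266 CPM (1135-1407, 39 cells), intervals that overlap. Capillary BECs had 1161 CPM (1074-1252), arterial BECs 817 CPM (681-972), tip-like BECs 721 CPM (638-813) and venous BECs 700 CPM (596-817). The last 3 were within counting error of each other. In capillary BECs 3 of 133 cells, those with 5 or more UMIs of Cxcl9, held 127 of the 197 Gbp2 UMIs, so the class level rests on few cells. Cells with as many Cxcl9 UMIs weighed on other subtypes as well. In cycling BECs 5 of 39 cells held 215 of 341 family UMIs and the other 34 stood at 600 CPM. In tip-like BECs 4 of 57 cells held 146 of 270 and the others stood at 371 CPM, and in high endothelial venules 5 of 80 held 150 of 597.

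Between the libraries, BECs showed the widest gap among the classes with over 100 cells in each library. WT cells held 1144 CPM of the family and KO-labelled cells 2202 CPM, which is a ratio of 1.92 (1.84-2.01). Past 1.5-fold, 6 of the 9 members were higher and none lower, where 6.48% of all 11079 measured genes were past the same fold higher and 9.58% lower. The median log2 ratio of the members was 0.86, and that of all genes was -0.02. Since these ratios helped to choose the family, nothing is read from that comparison.

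Gbp2 had 191 CPM (175-207) in WT BECs and 656 CPM (625-688) in KO-labelled BECs, a ratio of 3.44 (3.12-3.79). Gbp5 had 83.2 CPM and 251 CPM, a ratio of 3.02 (2.60-3.51). These 2 genes lie in the chromosome 3 cluster, and both encode proteins with a lipid anchor. Gbp6 had 54.3 CPM and 116 CPM, a ratio of 2.13 (1.75-2.59). Gbp3 and Gbp4 had ratios of 1.82 (1.58-2.09) and 1.81 (1.62-2.03). Gbp10 went from 5 UMIs to 46 UMIs, a ratio of 10.4 (4.15-33.6), and may share reads with Gbp6. Gbp7 had a ratio of 1.42 (1.30-1.55). Gbp8 and Gbp9, of the overlapping loci on chromosome 5, had ratios of 0.913 and 0.890, both with intervals that include 1.

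**Figure D2:**
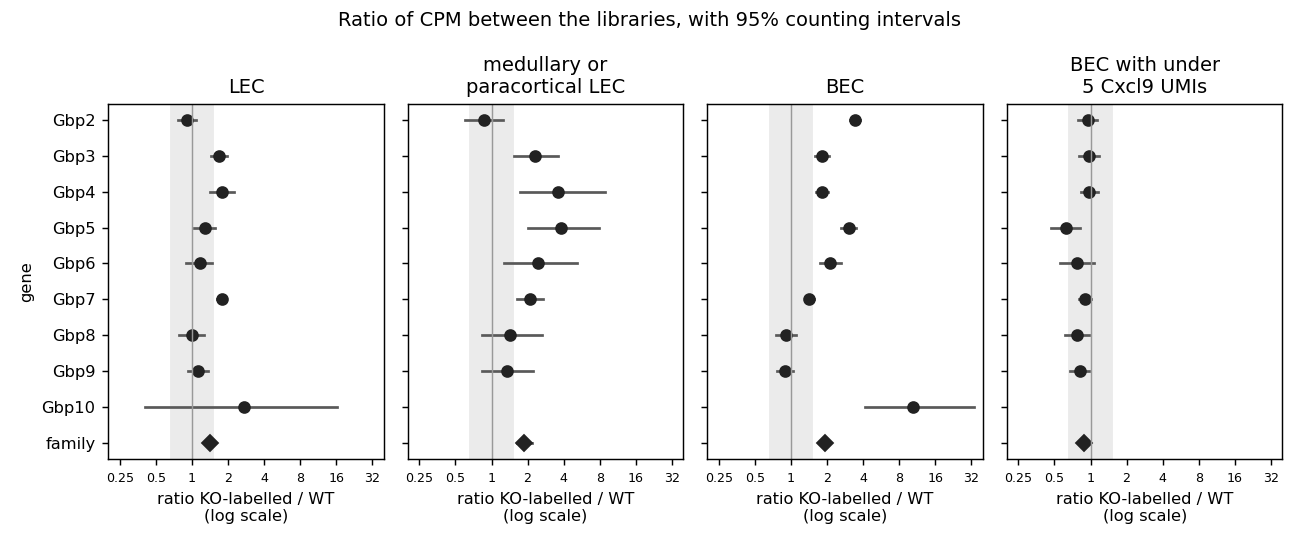
Ratio of CPM in the KO-labelled over the WT library (horizontal, log scale) for each GBP gene and the summed family, with 95% counting intervals, in 4 classes, where the grey band spans 1.5-fold either way. In all BECs 6 genes lie right of the band, whereas in BECs with under 5 Cxcl9 UMIs none does and Gbp5 lies left of it at 0.621.

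The gap in BECs sat in cells that also held transcripts of Cxcl9, an interferon gamma-induced chemokine that draws T cells through CXCR3. Of 619 WT BECs 30 had 5 or more Cxcl9 UMIs, a share of 4.85% (3.29-6.85), and of 484 KO-labelled BECs 71, a share of 14.7% (11.6-18.1). These cells held 27.3% of the family's UMIs and 8.48% of all UMIs of WT BECs, and 71.1% and 20.1% in the KO-labelled library. In the remaining 589 and 413 BECs the family stood at 908 CPM (873-945) and 796 CPM (758-835), a ratio of 0.876 (0.823-0.933). There 0 of 8 measured members were past 1.5-fold higher (6.35% of all genes) and 1 was past it lower (8.67% of all genes), which was Gbp5 with 62.7 CPM and 38.9 CPM, a ratio of 0.621 (0.471-0.814). Gbp2, Gbp3 and Gbp4 had ratios of 0.944, 0.970 and 0.980, each with an interval that included 1.

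Near the threshold, with 3 to 7 Cxcl9 UMIs, stood 31 WT and 14 KO-labelled BECs. Just outside it, 10 and 4 BECs had exactly 4 Cxcl9 UMIs, and just inside it, 2 and 0 had exactly 5. With a threshold of 3 UMIs the log2 ratio of the family between WT cells above and below was 1.73, beside 2.02 at 5. Among the cells above it the median was 16 Cxcl9 UMIs for WT cells, against 43 for KO-labelled cells. The family had a median of 22.5 UMIs per cell (4 to 137) in the 30 WT cells and 31 (0 to 341) in the 71 KO-labelled cells. Below the threshold the median was 3 in both libraries, and the highest cells had 50 and 44 family UMIs. At least 20 family UMIs were found in 16 of the 30 and 50 of the 71 cells above the threshold, and in 9 of 589 and 7 of 413 cells below it. The cells above it were also deeper, with a median of 7968 against 4344 UMIs in the WT library and 6127 against 4443 in the other. With each cell thinned to 3000 UMIs, the log2 ratio of the family between cells above and below was 2.16 in the WT library, beside 2.02 without thinning.

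**Figure D3:**
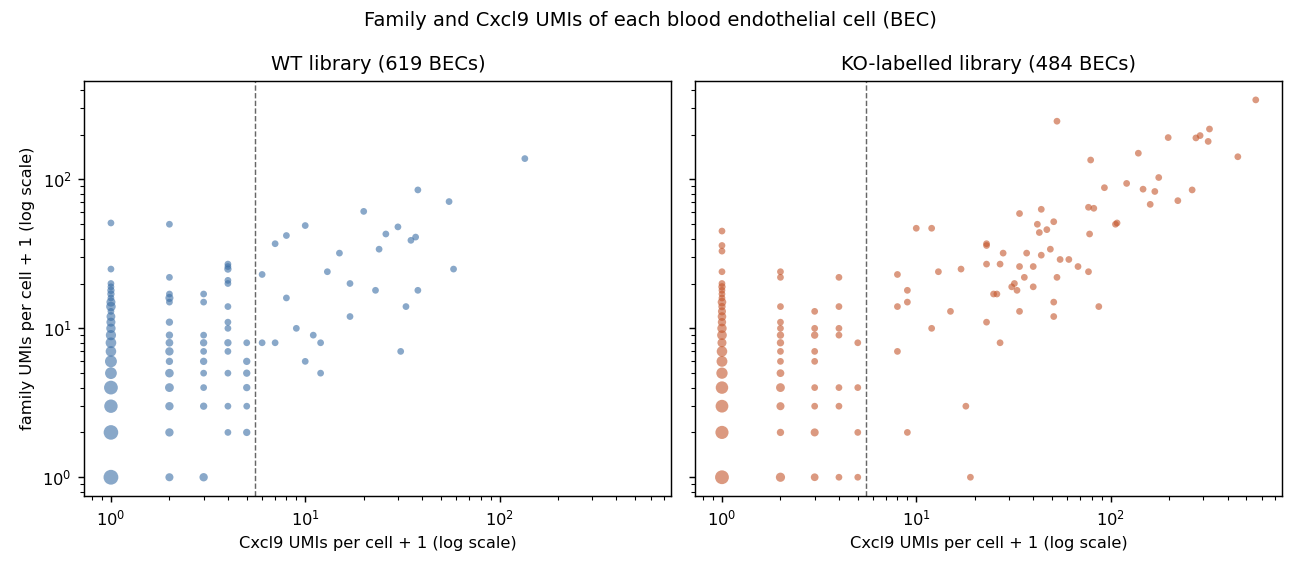
UMIs of the summed GBP family (vertical) against UMIs of Cxcl9 (horizontal) in each BEC, both plus 1 on log scales, with larger points where several cells coincide and a dashed line between 4 and 5 Cxcl9 UMIs. The cell with most family UMIs had 137 of them among WT cells and 341 among KO-labelled cells, both right of the line.

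Split at 5 Cxcl9 UMIs within each library, the family had 3688 CPM (3454-3934) above and 908 CPM below in WT BECs, a ratio of 4.06 (3.76-4.38). In KO-labelled BECs it had 7793 CPM (7555-8035) and 796 CPM, a ratio of 9.79 (9.25-10.4). Past 1.5-fold, 7 of 8 measured members were higher in the WT library, where 14.0% of all genes were (21.6% lower), and 9 of 9 in the KO-labelled library, where 9.74% of all genes were (25.7% lower). Cxcl9 is itself an interferon target, and the cells were split by it, so this is a description of cells that carry such a response.

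The members differed in how far apart the cells stood. Gbp2 had 1057 CPM above and 111 CPM below in WT cells, a ratio of 9.56 (8.07-11.3). KO-labelled cells had 2847 and 104 CPM of Gbp2, which gives 27.3 (23.7-31.6). Gbp5 had ratios of 4.85 (3.65-6.40) and 28.1 (22.2-35.9). Gbp6 had ratios of 5.35 (3.77-7.5) and 14.7 (11.1-19.7). Gbp3, Gbp4 and Gbp7 lay between 3.15 and 4.0 in the WT library and between 5.38 and 7.70 in the other. Of the 8 genes measured in WT cells Gbp8 had the smallest ratio, 1.45 (0.932-2.17). Among KO-labelled cells Gbp8 and Gbp9 had 2.12 (1.54-2.89) and 2.11 (1.64-2.71). Gbp10 had 45 UMIs in the 71 KO-labelled cells and 1 UMI in the other 413.

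**Figure D4:**
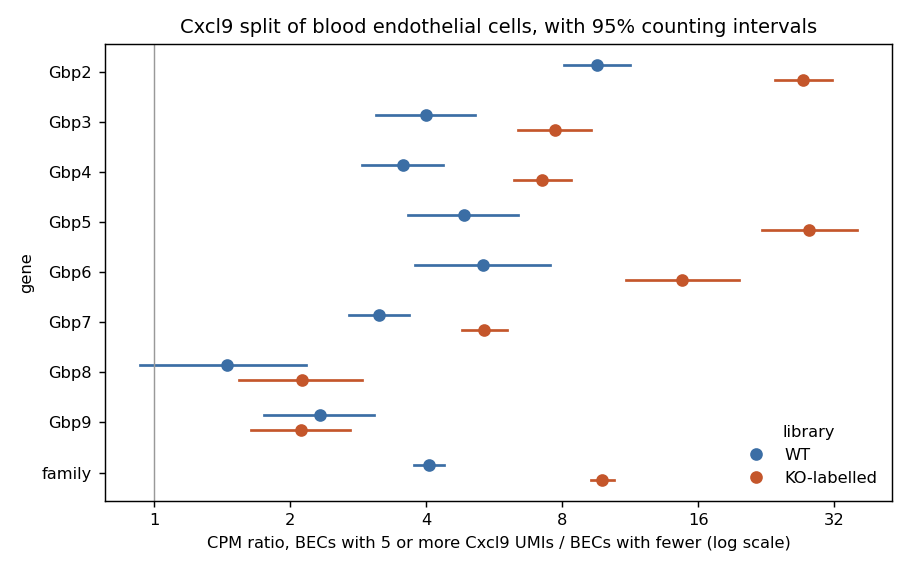
Ratio of CPM in BECs with 5 or more Cxcl9 UMIs over BECs with fewer (horizontal, log scale), for 8 GBP genes and the family in each library, with 95% counting intervals; Gbp10 is left out for its low counts. Gbp2, Gbp5 and Gbp6 stand farthest right in the KO-labelled library, and Gbp8 and Gbp9 nearest to 1 in both.

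Cells above the threshold were compared between the libraries as well. The family ratio of KO-labelled over WT was 2.11 (1.97-2.27), and 7 of 9 members were past 1.5-fold higher, where 16.9% of all genes were, and none past it lower, where 19.6% were. Gbp5 had 304 and 1095 CPM, a ratio of 3.60 (2.83-4.63), and Gbp2 had a ratio of 2.69 (2.36-3.08), whereas Gbp9 had 260 and 191 CPM, a ratio of 0.734 (0.532-1.02). Median Cxcl9 per cell also differed between these groups, as given above. This direction rests on the KO-labelled sub-cluster described next, which holds 47 of the 71 KO-labelled cells. Without it, a setting chosen after seeing the data, 30 WT and 24 KO-labelled cells had 3688 and 2444 CPM (2223-2681) of the family, a ratio of 0.663 (0.591-0.743). Gbp2 then had 1057 and 653 CPM, a ratio of 0.618 (0.494-0.770), and Gbp7 a ratio of 0.575 (0.446-0.736).

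The KO-labelled cells above the threshold were of a few kinds. One BEC sub-cluster of 48 cells, 47 of them with 5 or more Cxcl9 UMIs, came wholly from the KO-labelled library. Its leading genes included Cxcl9, Cxcl10, Ido1, Ciita, Gbp2 and Gbp5, and it is left without a cell type name. The GBP genes and the interferon genes on the lists used here had been kept out of the clustering. Leading genes on no list, such as Ido1, had not been kept out. The family stood at 10642 CPM (10299-10994) there and Gbp2 at 4014 CPM. Its 8 BEC markers summed to 13347 CPM beside 11587 CPM in the other KO-labelled BECs, its myeloid markers to 340 and 602 CPM, and its T cell markers to 14.7 and 7.96 CPM. Without these 48 cells the log2 ratio of the family in BECs was -0.30, and that of the Cxcl9 split in the KO-labelled library was 1.62, beside 3.29 with them. No member was then past 1.5-fold higher in BECs, but the share of all genes past it is not given for this setting.

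Of the 71 KO-labelled BECs above the threshold 52 were male, 2 female and 17 unassigned, and of the 413 below it 192 were male, 111 female and 110 unassigned. In the KO-labelled library 21.3% (16.3-27) of male and 1.77% (0.215-6.25) of female BECs were above it, and in the WT library 5.81% (3.53-8.93) and 1.28% (0.0325-6.94). Family levels by sex were 2611 CPM in male and 1015 CPM in female KO-labelled BECs, and 1166 and 799 CPM in the WT library. How many animals gave these cells is not known, since the nodes were pooled without sample tags, and the part of single animals was not tested. The log2 ratio of the family in BECs was 1.16 within male and 0.34 within female cells, beside 0.94 in all.

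Outside that sub-cluster, cells above the threshold were also found in tip-like BECs, the Esm1 and Angpt2 carrying cells of sprouting vessels. In 4 WT and 19 KO-labelled tip-like cells above the threshold the family stood at 3617 and 2251 CPM, and in the 53 and 85 below it at 371 and 445 CPM, ratios of 9.74 (7.61-12.5) and 5.05 (4.29-5.96). Over all tip-like cells the ratio of KO-labelled over WT had an interval of 0.964 to 1.29, and Gbp2 alone stood apart at 2.17 (1.48-3.27). Cycling BECs above the threshold, 5 WT and 3 KO-labelled, had ratios of 6.02 (4.81-7.56) and 5.41 (3.97-7.32) over the rest. In high endothelial venules 5 of 80 WT cells and 0 of 49 KO-labelled cells were above it, and the family was lower in the KO-labelled library, 1369 and 978 CPM, a ratio of 0.714 (0.615-0.828). Gbp5 was at 103 and 34.1 CPM in these venules, a ratio of 0.331 (0.142-0.685). The 5 WT cells above the threshold raised both WT levels. Below it the 75 other WT venule cells stood at 1131 CPM (1029-1241) for the family and 73.4 CPM (49.2-105) for Gbp5.

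In LECs the family was higher in the KO-labelled library by less than in BECs, with 741 CPM (719-764) and 1044 CPM (994-1096), a ratio of 1.41 (1.33-1.49). Past 1.5-fold, 3 of 8 measured members were higher, where 11.3% of all genes were, and none was lower, where 13.2% of all genes were. The median log2 ratio was 0.28 for members and 0.03 for all genes. Gbp7 had 239 and 424 CPM, a ratio of 1.77 (1.61-1.94), Gbp4 38.7 and 69.2 CPM, a ratio of 1.79 (1.41-2.26), and Gbp3 90.9 and 154 CPM, a ratio of 1.69 (1.45-1.97). Gbp2, which had the highest ratio in BECs apart from the rare Gbp10, had 116 and 105 CPM here, a ratio of 0.907 (0.760-1.08). Gbp8 and Gbp9 had 0.994 (0.783-1.25) and 1.12 (0.921-1.35).

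Of 716 WT LECs 16 had 5 or more Cxcl9 UMIs, a share of 2.23% (1.28-3.6), and 10 of them were floor LECs. Of 208 KO-labelled LECs 1 did, a share of 0.481% (0.0122-2.65), and the intervals overlap. In the WT library the family stood at 2200 CPM in those 16 cells and 695 CPM in the rest, a ratio of 3.17 (2.85-3.51). In floor LECs the ratio was 2.02 (1.69-2.41). Among LECs with under 5 Cxcl9 UMIs, 700 and 207 cells, the ratio of KO-labelled over WT was 1.48 (1.40-1.57).

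By niche, the medullary or paracortical LECs, which carry scavenger receptors and face the lymph leaving the node, stood apart. The leading genes of this sub-cluster included Itih5, Mrc1 and Reln, but also Rsad2, Ifi204 and Ifi211. Rsad2 had been kept out of the clustering, whereas Ifi204 and Ifi211, on no list used here, had not. Cells with an interferon response may therefore have been gathered into this sub-cluster, which was not tested. In 41 WT and 80 KO-labelled cells the family had 677 CPM (594-769) and 1273 CPM (1191-1360), a ratio of 1.88 (1.63-2.18). Past 1.5-fold, 5 of 8 measured members were higher, where 12.7% of all genes were, and none was lower, where 13.2% were, with Gbp5 at 3.81 (2.02-7.93), Gbp4 at 3.62 (1.72-8.78), Gbp6 at 2.45 (1.27-5.20), Gbp3 at 2.31 (1.55-3.56) and Gbp7 at 2.09 (1.64-2.69). Gbp2 had 146 and 125 CPM, a ratio of 0.861 (0.603-1.24). Ceiling LECs had a family ratio of 1.23 (0.982-1.54) from 195 and 22 cells, and floor LECs 1.13 (0.846-1.48) from 111 and 8 cells, both including 1. Cycling LECs went the other way, with 1065 and 587 CPM from 42 and 9 cells, a ratio of 0.551 (0.383-0.771). The ceiling cells sat in different sub-clusters: all 22 KO-labelled and 108 WT cells in one, and 87 WT cells, at 354 CPM, in another with no KO-labelled cell. Within the shared sub-cluster the ratio of the family was 0.940 (0.745-1.18), of Gbp3 1.14 (0.635-1.94) and of Gbp7 1.37 (0.938-1.95). Over all ceiling LECs 2 of 8 members were past 1.5-fold higher (19.9% of all genes), Gbp3 and Gbp7, and 1 lower (23.4%), Gbp5, on 66 and 1 UMIs. With 8 KO-labelled floor LECs, members were not counted there; Gbp2 had 63 and 1 UMIs and Gbp7 221 and 20. The unnamed LEC sub-clusters with over 30 cells in each library, led by Rnf220 and by Igfbp5, had ratios of 1.14 (0.937-1.38) and 1.17 (0.992-1.39). The libraries differed in the makeup of their LECs, and the mean log2 ratio of the family over these 3 sub-clusters, the medullary one included, was 0.44, beside 0.49 for pooled LECs. No niche name was given to 300 WT and 85 KO-labelled LECs.

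In medullary or paracortical LECs a large part of the family sat in cells with transcripts of Rsad2, the gene of the antiviral protein viperin. This split was chosen after its values were seen. In the KO-labelled library 10 of 80 cells had 5 or more Rsad2 UMIs, and in the WT library 0 of 41, with at most 3 in a cell. Those 10 cells held 40.5% of the family's UMIs in this niche and 11.6% of all UMIs. The family stood at 4437 CPM in them and 857 CPM in the remaining 70 cells, which is a ratio of 5.18 (4.52-5.93). Gbp2 had 637 and 58.1 CPM, a ratio of 11 (7.04-17.3), Gbp4 a ratio of 8.72 (5.04-15.2), Gbp5 7.24 (4.60-11.4) and Gbp7 4.53 (3.62-5.65).

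The 10 cells held 2 Cxcl9 UMIs and the other 70 held 18, whereas Cxcl10, another CXCR3 ligand, had 393 UMIs there and 85 in the other 70 cells. In none of the LECs of either library were 5 or more Cxcl9 and 5 or more Rsad2 UMIs found together. Only 1 WT and 12 KO-labelled LECs had 5 or more Rsad2 UMIs, and only 16 and 1 had 5 or more Cxcl9 UMIs. With so few cells an overlap could hardly be seen, so nothing is read from its absence. The 10 cells were 5 male, 3 female and otherwise unassigned, and the other 70 were 19 male and 41 female where assigned. Median depths were close, 9760 and 8788 UMIs. Without the cells of 5 or more Rsad2 UMIs the family ratio of KO-labelled over WT in this niche was 1.27 (1.08-1.48). Gbp2 then had 146 and 58.1 CPM, a ratio of 0.399 (0.253-0.623). All cells left out were KO-labelled and held 52 of that library's 88 Gbp2 UMIs here. The 5 WT cells with most family UMIs, 46.0% of the family, stayed in. Both ratios fall by this choice of cells, so they are not read as a difference between the remaining cells. Over all LECs, without those of 5 or more Rsad2 UMIs, the log2 ratio of the family was 0.13 and that of Gbp5 -0.29. With them the values were 0.49 and 0.36. No member was then past 1.5-fold higher, but the share of all genes past it is not given for this setting.

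**Figure D5:**
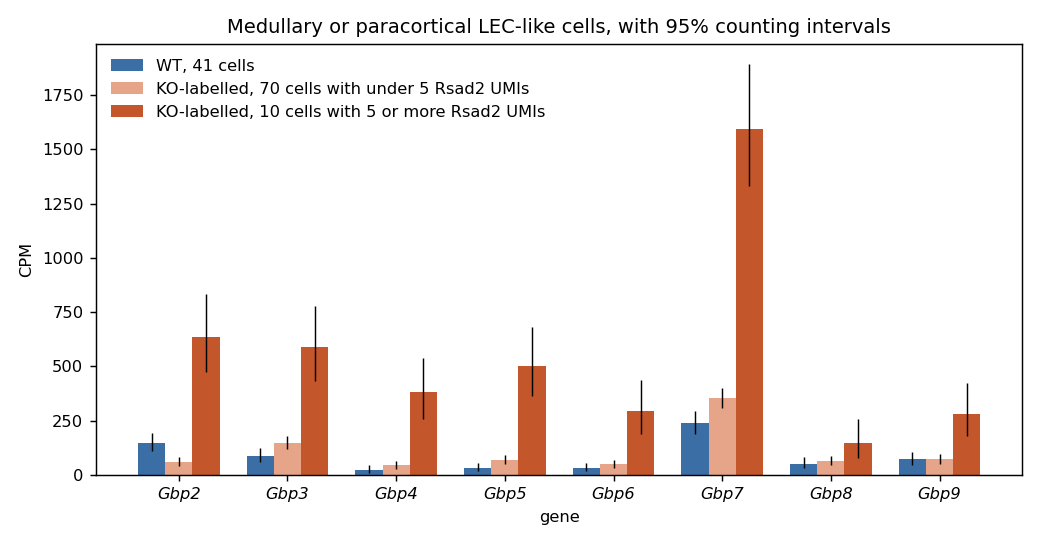
CPM of 8 GBP genes (vertical, from 0) in medullary or paracortical LEC-like cells of the WT library and of the KO-labelled library split at 5 Rsad2 UMIs, with 95% counting intervals as error bars. For Gbp7 the bars stand at 237, 352 and 1593 CPM, and for Gbp2 the KO-labelled cells with few Rsad2 UMIs are the lowest at 58.1 CPM.

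BECs with under 5 Cxcl9 UMIs were split by Rsad2 in the same way. Cells with 5 or more Rsad2 UMIs were deeper here, with medians of 6123 against 4325 UMIs for WT and 7585 against 4431 for KO-labelled cells. Where assigned, they were 14 male and 1 female in the WT library, against 294 and 76 in the rest. In the KO-labelled library they were 5 male and 2 female, against 187 and 109. The part of depth and sex was not tested. The family stood at 1532 CPM in 22 WT cells with 5 or more Rsad2 UMIs and 875 CPM in the remaining 567, which is a ratio of 1.75 (1.51-2.02). KO-labelled cells, 10 and 403 of them, had 1440 and 773 CPM, and their ratio was 1.86 (1.51-2.27). Gbp7 and Gbp8 had ratios of 1.98 (1.54-2.53) and 2.16 (1.30-3.40) among WT cells, against 2.45 (1.74-3.36) and 3.38 (1.74-6.02) among KO-labelled cells. Gbp4 had 1.13 (0.699-1.74) and 0.893 (0.404-1.72).

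Among lymphocytes the lowest ratio was in CD4 T cells, with 896 CPM (839-956) and 659 CPM (624-695), a ratio of 0.735 (0.675-0.800), and 2 of 8 measured members were past 1.5-fold lower, where 7.88% of all genes were, and none higher, where 8.09% were: Gbp6 at 0.645 (0.447-0.935) and Gbp3 at 0.605 (0.315-1.18). Gbp7 had 262 and 182 CPM, a ratio of 0.695 (0.592-0.817). In CD8 T cells the family ratio was 0.925 (0.867-0.986) and none of 9 members was past 1.5-fold either way (6.83% of all genes higher, 6.49% lower). In regulatory T cells it was 1.08 (0.968-1.22), with 1 of 8 members past 1.5-fold higher (11.8% of all genes) and none lower (10.6%), Gbp5 at 1.51 (0.997-2.33). In B cells it was 1.01 (0.932-1.09), with 1 of 8 members past 1.5-fold lower (6.45% of all genes) and none higher (5.17%), Gbp6 at 41 and 24 UMIs, a ratio of 0.503 (0.291-0.853).

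A small unnamed cluster led by Siglech, Ms4a6c, Cd209a, Csf1r and Ccr9, 57 WT and 74 KO-labelled cells, had a family ratio of 2.16 (1.75-2.68), from 288 to 620 CPM, and Gbp2 stood at 28.3 and 171 CPM, on 12 and 91 UMIs, with a ratio of 6.05 (3.30-12.1).

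The immunity-related GTPases, partners of the GBPs at vacuoles, were measured for 7 of 8 listed genes. In BECs 3 of 7 were past 1.5-fold higher in the KO-labelled library (6.48% of all genes), with Igtp, a regulator of this group, at 2.27 (1.90-2.71). In medullary or paracortical LECs 7 of 7 were (12.7% of all genes), with the effector gene Iigp1 at 110 and 715 UMIs, a ratio of 3.24 (2.65-4.0). Tgtp1 had no WT UMI and counts by the lower bound of its ratio. Of the 715 Iigp1 UMIs 289 sat in the 10 cells with 5 or more Rsad2 UMIs. Between those 10 cells and the other 70 the ratios of the 7 genes ran from 2.98 (Irgm1) to 9.43 (Igtp). In BECs with under 5 Cxcl9 UMIs 0 of 7 were past 1.5-fold either way (6.35% of all genes higher, 8.67% lower). Across the Cxcl9 split 7 of 7 were higher in each library (14.0% and 9.74% of all genes), Igtp by 3.72-fold (2.63-5.19) and 12.9-fold (10.2-16.6).

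The genes that carry the interferon signal are listed apart from their targets. Of the interferon gamma signalling genes 1 of 9 was past 1.5-fold higher in BECs (6.48% of all genes), the feedback inhibitor Socs1 at 3.48 (1.82-7.09). In BECs with under 5 Cxcl9 UMIs 0 of 8 were higher (6.35% of all genes) and 1 was lower (8.67%), Irf1. In LECs 0 of 9 were higher (11.3% of all genes) and 3 lower (13.2%), Irf1 at 0.665 (0.567-0.776), Irf8 at 0.627 (0.522-0.750) and Socs1 at 0.410 (0.206-0.747). The receptor gene Ifngr1 had ratios of 0.945 (0.844-1.06) in BECs and 1.35 (1.16-1.56) in LECs. Of the type I interferon signalling genes 4 of 7 were past 1.5-fold higher in LECs (11.3% of all genes), among them Irf7 at 1.83 (1.46-2.28), and 0 of 7 in BECs (6.48%), where 1 of 7, Tyk2, was past it lower (9.58% of all genes).

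Among the targets, of the type I interferon-stimulated genes 10 of 11 were past 1.5-fold higher in LECs (11.3% of all genes), with a median log2 ratio of 1.39, and 1 of 11 in BECs (6.48%), with a median of 0.16. In medullary or paracortical LECs 9 of 10 were higher (12.7% of all genes), with a median of 2.63. Rsad2 is on this list, and the 10 KO-labelled cells chosen by it held 265 of its UMIs there, the other 70 cells 17. In ceiling LECs 2 of 8 were higher (19.9%) and 2 lower (23.4%), with a median of -0.06. Across the Cxcl9 split of BECs 10 of 11 type I interferon-stimulated genes were higher in the WT library (14.0% of all genes), with a median of 1.40. In the KO-labelled library 11 of 11 were higher across this split (9.74% of all genes), with a median of 1.61. Of the interferon gamma-induced genes 6 of 10 were past 1.5-fold higher in BECs (6.48% of all genes), with a median of 1.18. Among them were Ciita, the master switch of MHC class II, with 14 and 105 UMIs and a ratio of 8.48 (4.84-16.1), and Serping1, the C1 inhibitor gene, at 8.82 (6.19-12.9). In BECs with under 5 Cxcl9 UMIs 0 of 9 were higher (6.35% of all genes) and 1 was lower (8.67%), Cd74, with a median of -0.22. Across the Cxcl9 split 9 of 9 were higher in WT BECs (14.0% of all genes) and 10 of 10 in KO-labelled BECs (9.74%). The medians were 1.26 and 4.14, with Cxcl9 itself among these genes. BECs above the threshold thus stood higher in both lists of targets in each library. In LECs 1 of 9 was higher, Cxcl10, close to the 11.3% of all genes, and the median was 0.08. There 3 were lower (13.2% of all genes), Cxcl9 at 0.301 (0.192-0.453), Cd74 at 0.528 (0.424-0.651) and Cd274 at 0.645 (0.434-0.932). In medullary or paracortical LECs 5 of 9 were higher (12.7% of all genes), Cxcl10, Cd274, Psmb9, Tap1 and Cd74, and none lower (13.2%), with a median of 0.66. Cd74 there had 4 WT and 48 KO-labelled UMIs, a ratio of 5.99 (2.19-22.9), and Cd274 had 6 and 19, a ratio of 1.58 (0.607-4.84). Of the inflammasome partners 1 of 5 was past 1.5-fold higher in BECs (6.48% of all genes), the adaptor gene Pycard at 3.19 (1.80-5.92). In BECs with under 5 Cxcl9 UMIs 0 of 5 were higher (6.35% of all genes) and 1 was lower (8.67%), Gsdmd. In LECs 1 of 5 was higher (11.3% of all genes), Il18, on 12 and 8 UMIs. Of the ATG8 conjugation genes 0 of 10 were past 1.5-fold either way in LECs, where 11.3% of all genes were higher and 13.2% lower. In BECs 1 of 10 was lower, close to the 9.58% of all genes, Map1lc3a at 0.649 (0.472-0.886).

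Members resembled each other over sub-clusters and libraries to different degrees. Over 47 points of at least 30 cells, which share libraries, depth and free RNA, Pearson's r of log2(CPM + 1) was 0.89 for Gbp2 and Gbp7, 0.88 for Gbp6 and Gbp7 and 0.85 for Gbp2 and Gbp6, and 0.17 for Gbp3 and the rare Gbp10. Leaving out the Cxcl9-led sub-cluster gave 0.89, 0.87 and 0.81 for the first 3 pairs. Of 4464 other genes, those on no list used here with the most similar pattern to the summed family were Lgals9, which encodes galectin-9, with r of 0.858, Xaf1 with 0.842, Parp14, an ADP-ribosyltransferase gene, with 0.830, Rnf213, a ubiquitin ligase gene, with 0.822, and Ifih1, the gene of the RNA sensor MDA5, with 0.818. Of all genes the most similar was Rtp4, an interferon-stimulated gene, with 0.882, followed by Irgm2 with 0.863.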

How the data were processed

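Single cells were profiled with BD Rhapsody in 1 library per genotype. Per the file headers, the authors used version 1.11 of the BD Rhapsody WTA pipeline with an mm10 reference, Enhanced beads, no sample tags, and intronic reads retained. The deposited files hold whole-number counts of molecules per barcode and gene after error correction, not normalized. The members and gene lists were chosen with earlier results of these data known.

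Cells were called here from the curve of UMIs per barcode (4040 and 4239 barcodes, 14 of them shared), and cells with under 200 genes or over 25% mitochondrial UMIs were removed. Scrublet called 26 (0.674%) and 30 (0.737%) doublets, which were removed. Leiden clustering (scanpy 1.11.5) used resolution 1, 15 neighbours, 30 principal components and 2000 variable genes. The listed interferon-pathway genes, the GBP genes and sex-linked genes were kept out, but interferon targets on no list were not. Clusters were named from marker lists, with score thresholds set after the data were seen. Cells with Y-linked UMIs and no Xist were called male, and the reverse female. Sums per class were scaled to CPM without mitochondrially encoded genes. Intervals are exact (Poisson for CPM, conditional binomial for ratios, Clopper-Pearson for shares), at 95%, and cover counting error only, taking each UMI as independent. In a ratio a count of 0 was set to 3 counts, and pairs of counts that both reached no more than 3 got none. Genes needed 20 UMIs over both sides to count as measured. With 1 library per genotype no test was possible, and the pooled nodes give no spread between animals. Named are all 9 members, genes of the lists, and the 5 genes most like the family that are on no list. The ratio calculation was tested on simulated counts. Alternatives covered cell filters, doublets, error correction, weighting, clustering, sex, scaling, thresholds and thinning. Gene positions come from GENCODE and promoter windows from RefSeq. The values of 1 listed signalling gene are not reported here.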

Additional observations from a re-analysis of the deposited data

How the results depend on the processing

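Values are log2 ratios unless stated. For these settings the share of all genes past the fold is not given, so nothing is read from the counts of members. Over all settings tried, 741 of 821 single-gene values and 87 of 95 family values kept their direction. Leaving out the Cxcl9-led sub-cluster, a setting chosen after seeing the data, turned the BEC value of the family from 0.94 to -0.30, of Gbp2 to -0.36, Gbp3 to -0.08, Gbp4 to -0.08, Gbp5 to -0.66, Gbp6 to -0.43, Gbp7 to -0.29 and Gbp10 to -0.36, left 0 members past 1.5-fold higher in place of 6, and gave a Cxcl9 split of 1.62 in the KO-labelled library, beside 3.29. In BECs with 5 or more Cxcl9 UMIs it turned the family from 1.08 to -0.59, Gbp2 to -0.69, Gbp3 to -0.14, Gbp4 to -0.19, Gbp5 to -0.56, Gbp6 to -0.53 and Gbp7 to -0.80. Leaving out LECs with 5 or more Rsad2 UMIs, also chosen after seeing the data, gave 0.13 for the family in LECs, beside 0.49, with 0 members past 1.5-fold higher in place of 3, and turned Gbp5 to -0.29. Female cells alone gave 0.34 in LECs and 0.34 in BECs with 1 member past the fold in each, 0.27 in BECs with under 5 Cxcl9 UMIs (-0.19 in all cells; Gbp8 0.74, Gbp9 0.22), -0.28 in CD4 and -0.21 in CD8 T cells, -0.14 for Gbp2 and -0.19 for Gbp5 in BECs, and 0.54, 0.21 and 0.53 for Gbp2, Gbp6 and Gbp8 in CD4 T cells. In BECs with 5 or more Cxcl9 UMIs, on 1 WT and 2 KO-labelled female cells, the family gave 2.29, Gbp4 -0.10, Gbp5 -0.43 and Gbp6 -0.10. Male cells alone gave 0.61 in LECs, 1.16 in BECs, -0.35 in BECs with under 5 Cxcl9 UMIs while B cells gave -0.15. Keeping only cells of 10% mitochondrial UMIs or less, BECs with under 5 Cxcl9 UMIs gave -0.43 and the KO-labelled Cxcl9 split 3.50. Equal weight per cell gave 0.82 in BECs and -0.09 in BECs with under 5 Cxcl9 UMIs. At 2-fold 0 members were past the fold in LECs. The WT Cxcl9 split, 2.02, was 1.73 with a threshold of 3 UMIs and 2.16 with cells thinned to 3000 UMIs. The cause of these differences was not tested.

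No paired analysis was possible because each genotype has 1 library of pooled nodes. Counting intervals do not cover the spread between animals, and niches with few KO-labelled cells, such as 8 floor and 9 cycling LECs, limit what can be seen there.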
